A study of Mus musculus with 12 samples.

Results

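The 6 Dlx homeobox genes, Dlx1 to Dlx6, were followed in the cochlear epithelium of mouse embryos, out of 22869 genes in the table. Each gene was taken by its symbol and represented by its transcript row with the most reads. The family was chosen by values of these same embryos, the differences of its members between control and knockout, so that comparison is given for them as a description without a test. Dlx genes encode DNA-binding homeodomain proteins related to Distal-less of the fly, and lie in the genome as 3 pairs whose partners share enhancers and are often active in the same cells. In the inner ear, Dlx5 and Dlx6 are known from the dorsal part of the otic vesicle, which forms the semicircular canals and the endolymphatic duct, and the cochlea grows out of the ventral part. Dlx1 and Dlx2 are best known from forebrain interneurons, Dlx3 from skin, hair and tooth, Dlx4 from the placenta, and all of them from the pharyngeal arches.

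RNA-seq was run on cochlear epithelium of C57BL/6 embryos at embryonic day 16.5. There were 3 wild-type embryos (Esrp1+/+, control) and 3 Esrp1-/- embryos (knockout), which lack ESRP1, a regulator of splicing in epithelia, and the comparison asks what changes in the cochlea without it. The epithelium of each embryo, its 2 cochleae pooled, was dissected by hand and cleared of mesenchyme with collagenase P, and 2 libraries from each embryo stand together in 1 column of the table. The labels name no Cre driver, so the genotype is taken to be that of the whole embryo. The reads on genes numbered 12547301 in the shallowest embryo, knockout 1, and 21568516 in the deepest, control 2. Levels are CPM, the reads of a gene relative to the TMM-scaled library, which serve to compare embryos, or the deposited FPKM, which take transcript length into account and serve to compare genes. In tissue RNA, a difference between more cells that express a gene and more RNA per cell cannot be told apart.

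The labels and the tissue were checked first. Esrp1 fell from 139 ± 50.9 CPM in controls to 33.5 ± 5.98 CPM in knockouts (SD, n = 3 each), and edgeR's quasi-likelihood test gave it a log2 fold change of -2.05 ± 0.26 (SE) with an adjusted p = 0.0354. All 9 markers of cochlear epithelium were tested and summed to between 1711 and 2925 CPM in controls and 1934 to 2430 CPM in knockouts. Among them Gata3 was lower in each knockout (116, 259 and 262 CPM) than in any control (451, 324 and 324 CPM). Its log2 fold change was -0.79 (adjusted p = 0.869 in edgeR's test), and the groups overlapped for the other markers. Several embryos stood apart. The Y-linked gene Ddx3y had 94.97 and 81.87 CPM in knockouts 2 and 3 and under 1 CPM in knockout 1 and the controls, which carried Xist instead at 1098 to 1807 CPM. Fos, an immediate early gene, was high in both embryos numbered 1, at 153 and 64.6 CPM, and the other 4 had 1.00 to 7.27 CPM. Knockout 1 alone carried Otop1, a proton channel gene of the otoconia-bearing vestibular organs, with 121 reads (9.22 CPM), where control 1 had 1 read, knockout 2 had 2 reads and the others 0. A count of 0 allows up to 0.136 to 0.229 CPM in these libraries, counting error only. These embryos are named beside each result they touch.

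The family is held together by the homeobox, the stretch that encodes the DNA-binding homeodomain, and these 6 stretches are shown because similar genes can trade reads. Each homeobox is 180 bases long and split over 2 exons. Sequences are the coding strand 5′ to 3′ on GRCm38, from the GENCODE transcript that matches the deposited row, and the coordinates span the intron. Lower case marks bases identical to Dlx5, and capitals mark bases that differ from it.
Dlx5 (chr6:6878441-6879657, minus strand): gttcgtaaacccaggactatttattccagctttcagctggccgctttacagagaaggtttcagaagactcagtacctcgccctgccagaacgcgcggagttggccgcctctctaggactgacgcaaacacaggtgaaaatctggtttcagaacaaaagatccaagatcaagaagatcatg
Dlx6 (chr6:6865140-6867088, plus strand): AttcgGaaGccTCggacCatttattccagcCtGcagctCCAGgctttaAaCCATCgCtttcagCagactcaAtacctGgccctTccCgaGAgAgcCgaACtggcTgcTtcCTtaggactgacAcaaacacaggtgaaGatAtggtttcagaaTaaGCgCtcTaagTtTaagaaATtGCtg
Dlx1 (chr2:71531025-71532311, plus strand): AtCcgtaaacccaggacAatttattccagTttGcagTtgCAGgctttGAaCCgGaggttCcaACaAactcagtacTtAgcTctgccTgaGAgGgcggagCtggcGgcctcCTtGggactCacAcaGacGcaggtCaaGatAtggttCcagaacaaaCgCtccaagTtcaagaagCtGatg
Dlx2 (chr2:71544877-71545515, minus strand): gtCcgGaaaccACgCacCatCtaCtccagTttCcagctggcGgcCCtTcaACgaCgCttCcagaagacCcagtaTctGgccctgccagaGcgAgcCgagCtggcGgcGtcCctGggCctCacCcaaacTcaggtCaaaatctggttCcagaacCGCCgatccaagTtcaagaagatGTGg
Dlx3 (chr11:95121767-95123456, plus strand): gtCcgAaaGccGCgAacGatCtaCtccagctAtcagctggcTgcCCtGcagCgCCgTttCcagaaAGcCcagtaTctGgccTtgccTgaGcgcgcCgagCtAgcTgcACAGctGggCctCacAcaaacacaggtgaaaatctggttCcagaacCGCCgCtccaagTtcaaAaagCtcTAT
Dlx4 (chr11:95141422-95141920, minus strand): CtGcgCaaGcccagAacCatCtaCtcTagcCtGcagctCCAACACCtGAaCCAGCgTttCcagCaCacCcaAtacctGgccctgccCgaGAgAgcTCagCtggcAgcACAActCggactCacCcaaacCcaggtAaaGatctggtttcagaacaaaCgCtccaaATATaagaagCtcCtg

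Dlx5 and its neighbour Dlx6 differed at 48 of the 180 homeobox bases (73.3% identical). Dlx1 and Dlx2 were closer to Dlx5, at 76.1% and 75.6%, followed by Dlx3 at 71.7% and Dlx4 at 67.2%. Over the 15 pairs of genes the identity ran from 66.1% to 81.7%. Over the whole transcripts, the longest run of bases that any pair of members shared was 23 bases. The partners of each pair face each other tail to tail: Dlx1 (chromosome 2, 71528113 to 71533980, plus strand) lies 9.43 kb from Dlx2 (71543408 to 71546754, minus strand), and Dlx3 (chromosome 11, 95120119 to 95125296, plus strand) lies 15.15 kb from Dlx4 (95140447 to 95146263, minus strand). Dlx6 (chromosome 6, 6863334 to 6867970, plus strand) lies 9.83 kb from Dlx5 (6877805 to 6882085, minus strand).

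Dlx5 had few reads in the control cochlea and more in every knockout embryo. It had 17, 8 and 12 reads in controls 1, 2 and 3 and 150, 86 and 63 reads in knockouts 1, 2 and 3. Scaled for depth, these are 1.07, 0.363 and 0.647 CPM against 11.4, 4.62 and 4.20 CPM. Every knockout embryo lay above every control embryo, and knockout 1 lay above the other 2 knockouts. The summed reads differed by a ratio of 9.78 (95% interval 6.94 to 14.2), and the fitted log2 fold change was 3.30 ± 0.55 (SE). Without knockout 1, the ratio was 6.78 (4.70 to 9.99) and the log2 fold change 2.68. Leaving out knockout 1, here and for the genes below, sets controls with Xist against knockouts with Ddx3y. Sex and genotype cannot be told apart in those values. Intervals of read ratios cover counting error only. The gene has 2 transcript rows, which hold the same reads except in knockout 1, where they hold 150 and 148.

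Dlx6, the partner of Dlx5, showed the same order of embryos within the knockouts from a lower level. The controls had 2, 1 and 2 reads and the knockouts 57, 27 and 14 reads. In CPM these are 0.125, 0.0454 and 0.108 against 4.35, 1.45 and 0.934. The groups did not overlap, and every control embryo had 2 reads or fewer. The ratio of summed reads was 23.7, with an interval of 9.83 to 74.7 that reflects the 5 control reads, and the log2 fold change was 4.52 ± 0.80 (SE). Leaving out knockout 1 gave a ratio of 13.8 (5.46 to 44.7) and a log2 fold change of 3.64. Dlx6 entered the test only through the knockouts, since no control embryo and all 3 knockouts exceeded the filter's 0.573 CPM, so a difference was built into its being tested. Dlx5 exceeded it in 2 controls and 3 knockouts.

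**Figure D1:**
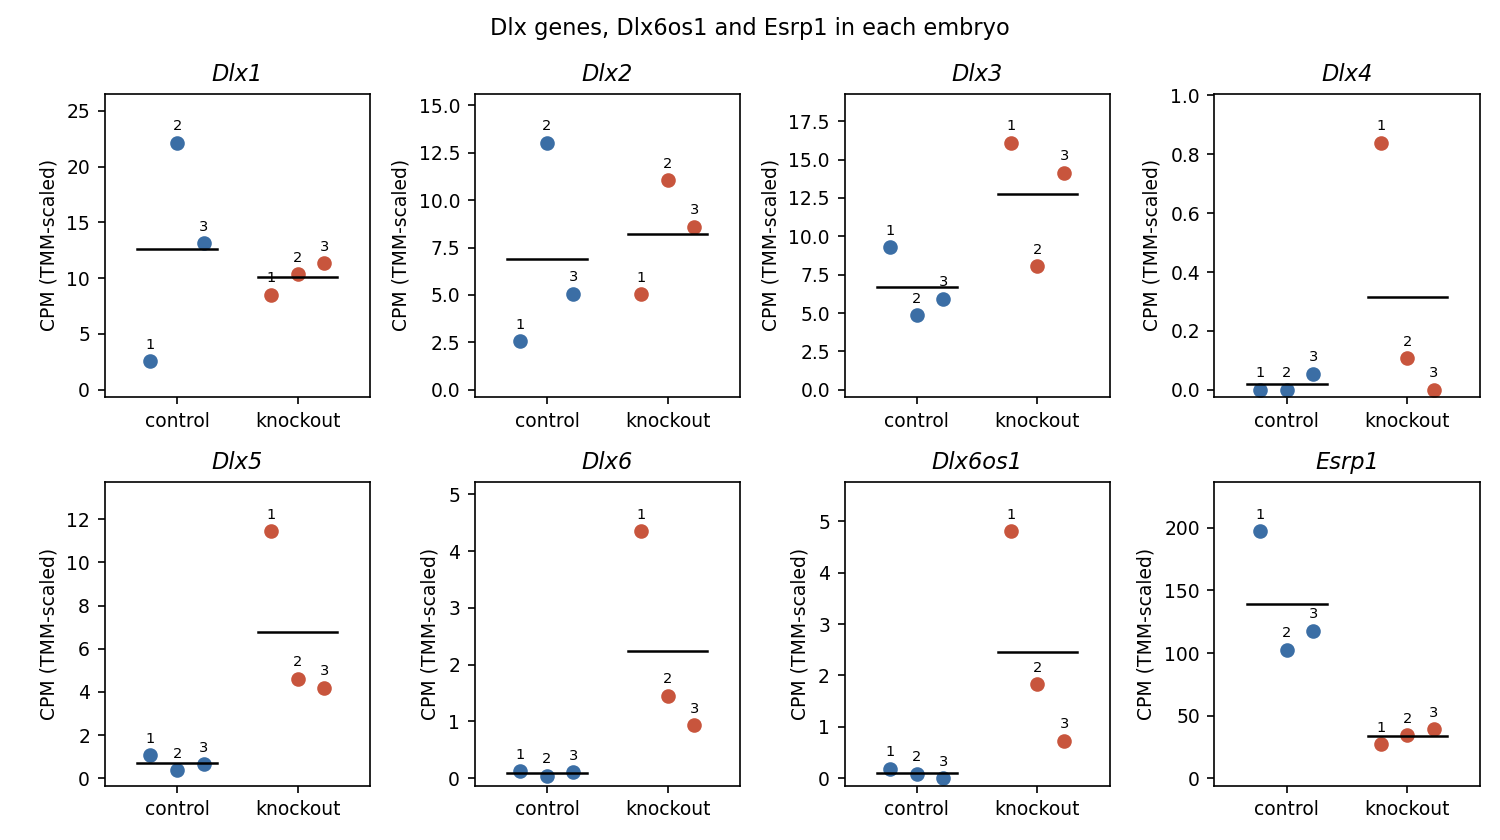
Level of each Dlx gene, Dlx6os1 and Esrp1 in CPM (vertical axes, linear, different for each gene) in 3 control and 3 knockout embryos. Points are embryos with their number and lines are group means. Dlx5, Dlx6 and Dlx6os1 are higher in every knockout embryo than in any control, with knockout 1 highest, while Dlx1, Dlx2, Dlx3 and Dlx4 overlap between the groups.

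The chromosome 6 locus also makes Dlx6os1, a long RNA from the strand opposite to Dlx6, of which one form is known in the forebrain to act on the enhancers of Dlx5 and Dlx6. Dlx6os1 (chromosome 6, 6820543 to 6871592, minus strand) had 3, 2 and 0 reads in the controls and 63, 34 and 11 reads in the knockouts. Its CPM were 0.188, 0.0907 and 0 in controls against 4.80, 1.83 and 0.734 in knockouts. It thus followed Dlx5 and Dlx6 in the order of the knockouts and in the absence of overlap between the groups. The read ratio was 26.1 (95% interval 10.9 to 82.1), or 15.1 without knockout 1, and the log2 fold change 4.66 ± 0.95 (SE). It too entered the test through the knockouts alone, and it did not pass edgeR's quasi-likelihood test (adjusted p = 0.187) but was called by DESeq2 (adjusted p = 0.000694). Its span covers Dlx6, but its annotated exons shared 0 bases with those of Dlx6 and of Dlx5. The shorter antisense RNA Dlx6as (6863797 to 6865150), which shares 104 exon bases (9.71%) with Dlx6, had 0 reads in the controls and 1, 2 and 0 reads in the knockouts. The library kit keeps strand, but whether the counting used it is not given in the sources used here, so reads in those shared bases cannot be assigned to one strand.

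The start regions of Dlx6os1 are shown as the regulatory sequence at hand for this locus, since those of Dlx5 and Dlx6 were not analysed here. RefSeq's table for GRCm38.p6 held the start regions of 2 members, Dlx1 and Dlx2, of 2 starts of Dlx6os1, and of the opposite-strand RNAs Dlx6os2, whose start at 6865150 is that of Dlx6as, and Dlx4os, each 300 bases from 250 before to 50 after the start. The GENCODE transcript matched to the deposited Dlx6os1 row starts at 6871592, upstream of both. The windows were searched for TAATTA, a core that many homeodomain proteins bind and that reads the same on both strands. Capitals mark its matches, and each window is printed 5′ to 3′ on the minus strand.
Dlx6os1 start region at chr6:6869484-6869783, minus strand: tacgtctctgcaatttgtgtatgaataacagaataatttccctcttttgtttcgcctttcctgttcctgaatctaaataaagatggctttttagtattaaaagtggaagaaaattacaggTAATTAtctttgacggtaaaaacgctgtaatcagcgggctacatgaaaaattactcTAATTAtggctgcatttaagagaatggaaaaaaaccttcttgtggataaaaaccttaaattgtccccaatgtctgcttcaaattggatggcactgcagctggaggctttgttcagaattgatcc
Dlx6os1 start region at chr6:6861634-6861933, minus strand: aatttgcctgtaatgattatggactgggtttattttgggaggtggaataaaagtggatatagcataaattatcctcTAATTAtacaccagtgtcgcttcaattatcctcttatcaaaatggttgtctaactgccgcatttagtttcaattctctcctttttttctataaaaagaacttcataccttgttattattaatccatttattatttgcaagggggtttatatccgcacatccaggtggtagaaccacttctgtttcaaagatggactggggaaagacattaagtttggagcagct

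The first Dlx6os1 window held 2 matches and the second held 1, while the windows of Dlx6os2, at the same locus, and of Dlx4os, Dlx1 and Dlx2 held 0. Of 32851 start regions of this length, 5.29% held at least 1 match and 0.490% held 2 or more. A match is a run of letters and not a measured binding site, and its bearing on these RNA levels was not tested.

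Dlx3, a gene of ectoderm and its appendages, had the next largest log2 fold change among the 5 members tested. It had 148, 107 and 110 reads in controls and 211, 150 and 212 reads in knockouts. In CPM, controls had 9.28, 4.85 and 5.93 and knockouts 16.1, 8.05 and 14.1. The groups overlapped through control 1, which lay above knockout 2. The log2 fold change was 0.93 ± 0.33 (SE), between 0.72 without knockout 1 and 1.24 without control 1. Its reads are the firmest of the knockout-higher members, with 365 in the controls together and 573 in the knockouts together, a ratio of 1.90 (95% interval 1.66 to 2.17).

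Dlx4, the partner of Dlx3, was close to absent. It had 0, 0 and 1 reads in controls and 11, 2 and 0 reads in knockouts, and did not enter the test. Of its 14 reads over all embryos, 11 came from knockout 1. The ratio of summed reads was 15.7 with an interval of 2.36 to 669, and without knockout 1 it was 3.37 with an interval of 0.175 to 199. Dlx4 and the partner it faces therefore had levels far apart in these libraries.

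Dlx1, the most abundant member in the control cochlea, varied widely among the controls themselves. It had 41, 488 and 244 reads in controls 1, 2 and 3 and 112, 193 and 170 reads in knockouts. The CPM were 2.57, 22.1 and 13.1 in controls and 8.54, 10.4 and 11.3 in knockouts. All knockouts lay inside the range of the controls, whose highest embryo had 8.61 times the level of the lowest. The log2 fold change was -0.33 ± 0.58 (SE), and 0.35 without control 2.

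Dlx2, its partner, had 41, 287 and 94 reads in controls and 66, 206 and 129 reads in knockouts. These are 2.57, 13.02 and 5.07 CPM against 5.03, 11.1 and 8.61 CPM. Control 1 was lowest and control 2 highest for both genes of the pair, and the knockouts again lay within the controls. Its log2 fold change was 0.25 ± 0.54 (SE), -0.13 without control 1, 1.11 without control 2 and -0.02 without knockout 2, so its direction rests on single embryos. The antisense RNA Dlx1as, which shares 335 exon bases (8.15%) with Dlx1, had 0, 7 and 12 reads in controls and 0, 1 and 2 in knockouts.

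The sums of neuronal and of proliferation genes both varied among the controls in the same order as this pair. The 10 proliferation genes, also listed after the values were seen, summed to 923, 1419 and 1270 CPM in controls 1, 2 and 3. A list of 12 neuronal genes, among them Tubb3, Snap25 and Elavl4, was chosen after the values were seen and summed to 272, 1165 and 730 CPM in controls and 739, 906 and 725 CPM in knockouts. Of the 12, 11 were lowest in control 1 and highest in control 2 among the controls, as were Dlx1 and Dlx2. The share of all genes with that order was not counted, so the order is not shown to be particular to neuronal genes. The exception was Isl1, with 143, 116 and 124 CPM. Snap25, a synaptic vesicle fusion gene, had 2.70, 22.4 and 11.3 CPM in controls and 8.16, 8.80 and 11.5 CPM in knockouts. Of the 12, 0 passed edgeR's quasi-likelihood test (0 in DESeq2, 1 lower at an unadjusted p under 0.05, beside 4.77% of all genes). Genes that mark the GABAergic interneurons in which Dlx1 and Dlx2 are best known were low. The 7 markers summed to 6.85 to 9.03 CPM in controls and 6.78 to 8.34 CPM in knockouts, and Sp9 and the GABA transporter gene Slc32a1 stayed under 1 CPM in every embryo. The part of neuronal RNA in the Dlx1 and Dlx2 values was not tested.

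**Figure D2:**
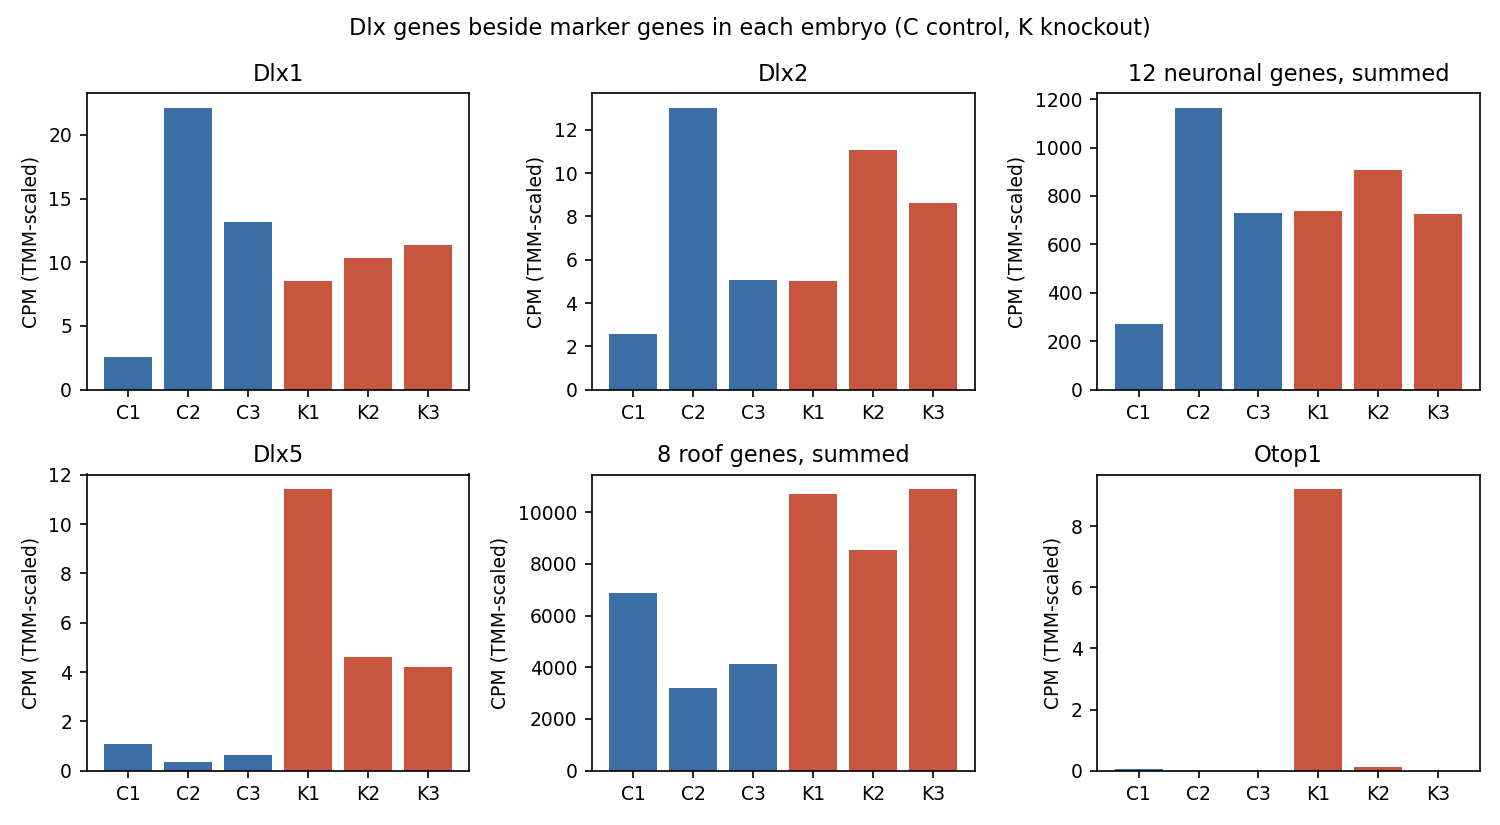
Levels of Dlx1, Dlx2 and Dlx5 in CPM (vertical axes, linear from 0) in each embryo beside the summed CPM of 12 neuronal genes and 8 roof genes and the CPM of Otop1. Bars are single embryos, C for control and K for knockout. Dlx1, Dlx2 and the neuronal sum are lowest in C1 and highest in C2, the sum of the roof genes, most of it Oc90, is higher in all knockouts, and Otop1 is at 9.22 CPM in K1 alone.

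Between genes, levels were compared per transcript length. In the control cochlea Dlx1 had 2.09 ± 1.68 FPKM, Dlx2 1.17 ± 0.973 and Dlx3 1.12 ± 0.293 (SD, n = 3), and the ranges of these 3 genes overlapped. Dlx5 followed at 0.198 ± 0.0883 FPKM, Dlx6 at 0.0360 ± 0.0123 FPKM and Dlx4 at 0.00458 ± 0.00794 FPKM, each below the range of the gene before it. Dlx1 stood above 55.3% of all genes in the control mean, Dlx5 above 37.4% and Dlx6 above 29.4%. In the knockouts the order was Dlx3 at 2.25 ± 0.788 FPKM, Dlx5 at 2.05 ± 1.38, Dlx1 at 1.66 ± 0.129, Dlx2 at 1.38 ± 0.487 and Dlx6 at 0.991 ± 0.874, with neighbours in the order overlapping, and then Dlx4 at 0.0776 ± 0.114. Dlx5 thus stood above 54.6% of genes there, and all members remained low.

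**Figure D3:**
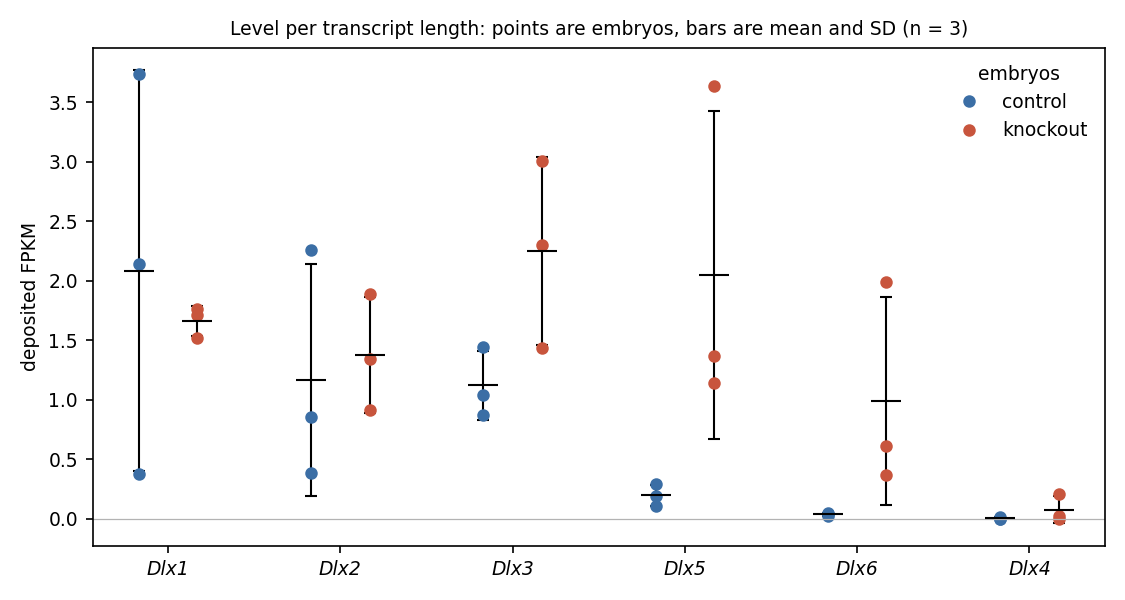
Deposited FPKM (vertical axis, linear) of the 6 Dlx genes in the order of their control mean. Points are embryos, horizontal marks the mean and error bars the SD (n = 3). Dlx1, Dlx2 and Dlx3 make up most of the family in controls, and Dlx5 reaches their range in knockouts, where its spread between embryos is also largest.

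The make-up of the family differed as well. The 6 genes summed to 4.61 ± 2.25 FPKM in controls and 8.41 ± 2.48 FPKM in knockouts. Dlx5 and Dlx6 together held 13.1%, 1.90% and 5.52% of that sum in controls 1, 2 and 3. In knockouts 1, 2 and 3 they held 49.9%, 28.1% and 21.9%, all above the controls. Control 1 had the highest share among controls, where Dlx1 and Dlx2 were lowest. Dlx6 stood at 15.4% to 21.5% of the Dlx5 level in controls and at 32.5% to 54.7% in knockouts, the control shares resting on 1 or 2 reads of Dlx6.

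Across the 6 embryos, log2 CPM of the members was compared within and between pairs, except for Dlx4, which was not tested. Pearson's r was 0.99 between Dlx5 and Dlx6, 0.95 between Dlx5 and Dlx6os1, and 0.85 between Dlx1 and Dlx2. Between the pairs it was -0.19 for Dlx1 with Dlx5, while Dlx3 followed Dlx5 at 0.88 and Dlx6 at 0.81. Likeness was thus not confined to partners. These are descriptions over 6 embryos that share the group difference and the features of single embryos given above.

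Of the 6 members 5 were tested, and 0 were called by edgeR's quasi-likelihood test with Benjamini-Hochberg adjustment, where 0.149% of the 14717 genes were called. At an unadjusted p under 0.05 there were 3 members (Dlx3, Dlx5 and Dlx6), beside 4.77% of all genes. DESeq2 called 2 (Dlx5 and Dlx6), beside 1.11% of all genes. The groups did not overlap for 2 of the 5, with the knockout higher, beside 5.40% of all genes. The members' median log2 fold change was 0.93, against 0.00 over all genes tested, and 4 of the 5 were positive. Since the family was taken up for these values, the counts describe it and support nothing further. A log2 fold change above that of Dlx5 was found for 0.0408% of genes, among them Dlx6, Dlx6os1 and the Y-linked Ddx3y and Kdm5d. That share, too, rests on the values the family was chosen by. In the authors' deposited table the log2 fold changes were 3.11 for Dlx5, 3.81 for Dlx6, 3.95 for Dlx6os1, 0.85 for Dlx3, 2.13 for Dlx4, -0.50 for Dlx1 and 0.13 for Dlx2. An FDR under 0.05 stood beside Dlx5, Dlx6 and Dlx6os1 in the authors' deposited table, as beside 0.775% of its rows.

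The sizes of these differences were read again in subsets of embryos, as values only. Without both embryos numbered 1, those with high Fos, the log2 fold changes were 3.13 for Dlx5, 3.90 for Dlx6 and 1.03 for Dlx3. That subset, like the one without knockout 1 alone, sets controls with Xist against knockouts with Ddx3y, so that sex and genotype cannot be told apart. With knockouts 2 and 3 left out instead, they were 4.06 for Dlx5 and 5.49 for Dlx6. There the only knockout is knockout 1, which has Xist like the controls but is also the embryo with Otop1 and one of those with high Fos, and these features cannot be told apart from genotype in 1 embryo. The part of sex in the values of Dlx5 and Dlx6 was not tested.

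Genes around the 3 pairs were examined to see whether the differences reached beyond the Dlx genes. Of 17 neighbours, 16 were tested and 0 passed edgeR's quasi-likelihood test (1 lower at an unadjusted p under 0.05, beside 4.77% of all genes, and 1 lower in DESeq2, beside 1.11%), with 8 positive and 8 negative log2 fold changes and a median of 0.01. On the Dlx5 side of chromosome 6, Acn9, a mitochondrial assembly factor gene 73.9 kb away, had -0.52 ± 0.24. Tac1, the substance P precursor gene 673 kb away, had 56.8, 28.9 and 33.2 CPM in controls and 17.1, 13.5 and 19.7 CPM in knockouts. Its groups did not overlap, with a log2 fold change of -1.24 ± 0.27 (SE, adjusted p = 0.224), opposite in sign to that of Dlx5. Asns, which makes asparagine, had -0.01.

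On the Dlx6 side, Shfm1, a proteasome subunit gene 285 kb away, had 0.10 ± 0.18. The mitochondrial carrier gene Slc25a13 had 0.31 and the dynein chain gene Dync1i1 0.09. Around Dlx1 and Dlx2, Metap1d, which lies 2.92 kb from Dlx1, had -0.09. Beyond it Hat1 had -0.07, and on the other side the integrin gene Itga6 had -0.16, the kinase gene Pdk1 -0.03 and Rapgef4 -0.44. Around Dlx3 and Dlx4, Itga3 had 0.25, Pdk2 0.15, Samd14 0.13, Fam117a 0.21 and the histone acetyltransferase gene Kat7, listed as Myst2, 0.03, while Tac4 had too few reads to be tested. All 16 neighbours had smaller log2 fold changes in size than those of Dlx5 and Dlx6. Only 0.0408% of all genes tested lay above Dlx5, so this says little about the neighbours.

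**Figure D4:**
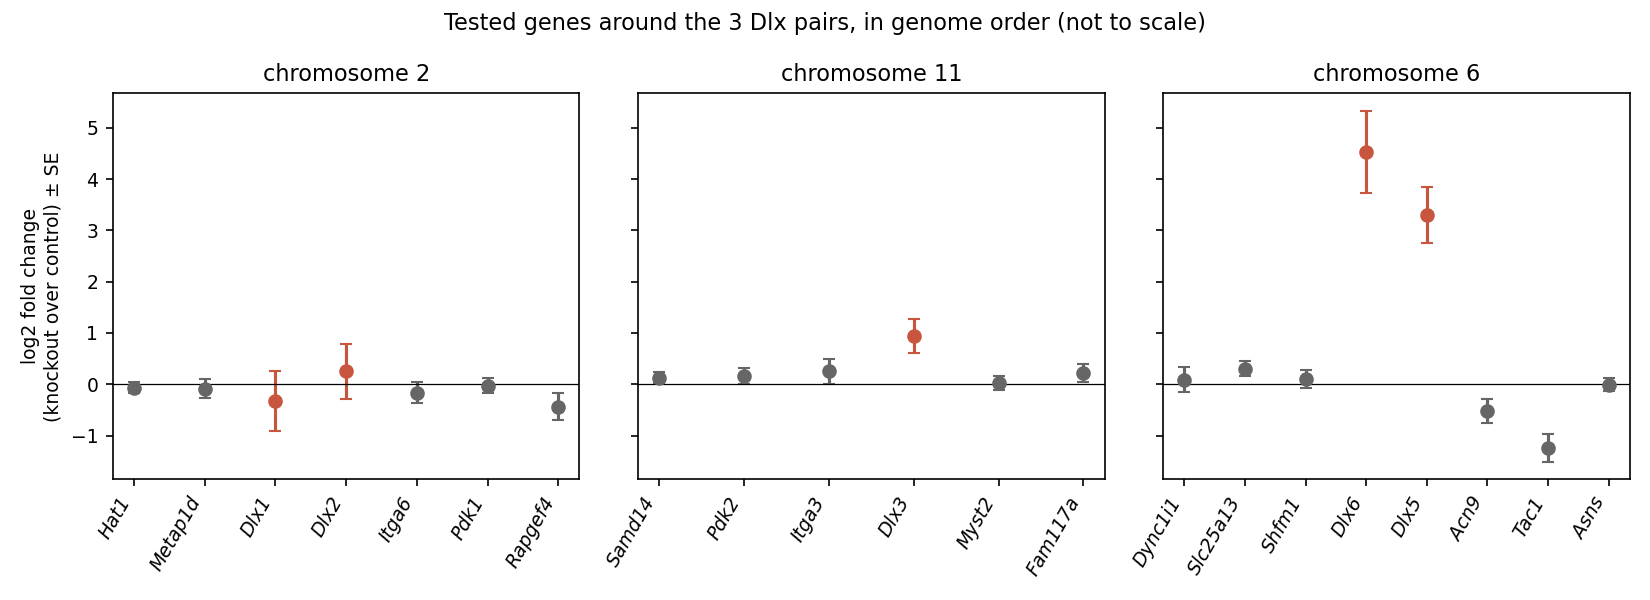
Log2 fold change, knockout over control (vertical axis, bars are SE), of the tested genes around the 3 Dlx pairs on chromosomes 2, 11 and 6, in genome order and not to scale. Dlx genes are red and neighbours grey. Dlx6 and Dlx5 stand at 4.52 and 3.30 among neighbours between -1.24 and 0.31.

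Transcription factors of the dorsal otic vesicle and the canals, where Dlx5 and Dlx6 act early, had log2 fold changes of both signs, 9 positive and 11 negative. Of 22 in the list, 20 were tested and 0 passed edgeR's quasi-likelihood test, with a median log2 fold change of -0.06. At an unadjusted p under 0.05 in that test there were 2 higher and 2 lower, beside 4.77% of all genes, and DESeq2 called 0. A roof gene among them, the homeobox gene Otx2, had 57.2, 23.4 and 32.5 CPM in controls but 76.8, 70.2 and 80.8 CPM in knockouts, with 1.01 on the log2 scale (adjusted p = 0.494). Otx1, needed for the lateral canal, had 27.7, 13.1 and 14.4 CPM against 29.0, 35.3 and 39.7 CPM (0.92, adjusted p = 0.589). Both were higher in each knockout than in any control, as were 5.40% of all genes. Sall4 had -1.49 (adjusted p = 0.782) from at most 1.02 CPM in any embryo, and Gata3, the other lower gene, had -0.79 (adjusted p = 0.869). Hmx2 and Hmx3, known canal genes chosen here after their values were seen, had -0.12 and -0.57. The paired box gene Pax8, also chosen after its values were seen, had 28 reads in knockout 1 and 0 reads in each other embryo.

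Msx and related homeobox genes, whose products can oppose Dlx proteins on shared DNA sites, were mostly near the limit of detection. Of 9, 4 were tested and 0 passed edgeR's test (1 lower at an unadjusted p under 0.05, beside 4.77% of all genes, and 0 in DESeq2). Msx1 had 9.90, 6.21 and 5.17 CPM in controls and 4.73, 4.402 and 4.27 CPM in knockouts, a log2 fold change of -0.66 ± 0.29 (adjusted p = 0.994). Emx2, at 39.8 to 57.5 CPM in controls, had 0.29, and Msx2 had 0.51.

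BMP signals can induce Dlx genes in skeletal and otic tissue, and the genes of this pathway were mostly lower in the knockouts without passing the test. All 13 were tested, 11 had negative log2 fold changes with a median of -0.56, and 0 passed edgeR's quasi-likelihood test (8 lower and 1 higher at an unadjusted p under 0.05, beside 4.77% of all genes, and 4 lower in DESeq2, beside 1.11%). The ligand gene Bmp4 had 111, 89.2 and 96.5 CPM in controls but 25.5, 42.3 and 48.3 CPM in knockouts, with -1.35 ± 0.22 on the log2 scale (adjusted p = 0.106). Knockout 1 was lowest for Bmp4 and highest for Dlx5. Bmper, which binds BMPs outside the cell, had -1.30 ± 0.23 (adjusted p = 0.123), and the inhibitory Smad gene Smad6, a readout of BMP signalling, had -0.80 ± 0.18 (adjusted p = 0.251). Summed over the 13 genes, controls had 750 to 967 CPM and knockouts 589 to 595 CPM.

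WNT signals from the dorsal hindbrain set dorsal otic expression of Dlx5 in the early ear. Of 14 Wnt genes, 11 were tested and 0 passed edgeR's test (1 higher at an unadjusted p under 0.05, beside 4.77% of all genes, and 1 higher in DESeq2, beside 1.11%), with a median of -0.16. That gene was Wnt4, a ligand made in the cochlear roof, with 29.8, 14.9 and 27.8 CPM in controls but 46.7, 59.3 and 67.9 CPM in knockouts, with 1.27 ± 0.26 on the log2 scale (adjusted p = 0.196). Wnt2b had 2.13, 0.862 and 1.08 CPM in controls and 12.4, 0.752 and 1.40 CPM in knockouts, so that knockout 1 alone was high (1.83 ± 0.95, adjusted p = 0.994). Sp5, a Wnt readout, had -0.47.

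In the jaw, endothelin signalling turns on Dlx5 and Dlx6. Of 11 genes of that route, 10 were tested and 0 passed edgeR's test (0 at an unadjusted p under 0.05, 0 in DESeq2), with 9 of 10 negative and a median of -0.23. The converting enzyme gene Ece1 had -0.27, the ligand gene Edn1 -0.42 and the transcription factor gene Tfap2a -0.55. Arch mesenchyme markers summed to 54.3 to 79.2 CPM in controls and 53.3 to 65.5 CPM in knockouts, and Hand2, Barx1 and Alx1 stayed under 1 CPM in every embryo.

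Genes known as targets or partners of DLX proteins in brain, jaw and bone were checked last. Of 26, 15 were tested, with a median of 0.17. Of these, 0 passed edgeR's test (1 lower at an unadjusted p under 0.05, beside 4.77% of all genes, and 0 in DESeq2). Gad2, a GABA synthesis gene that DLX proteins activate in the forebrain, had 1.94, 1.72 and 2.64 CPM in controls but 0.229, 0.859 and 0.534 CPM in knockouts, with -1.90 ± 0.49 on the log2 scale (adjusted p = 0.357). The related gene Gad1, chosen after its values were seen, had 0.50. Gsc, a jaw homeobox gene, had -0.78 and the bone phosphatase gene Alpl 0.59. Of the 7 cartilage and bone markers, knockout 2 stood far above the others for Col10a1 (44.2 CPM against at most 0.162) and Ibsp (15.5 CPM against at most 1.13), and was also highest for Acan, Matn1, Runx2 and Sp7. Runx2 and Sp7 were present in every embryo, at 3.20 to 8.27 and 1.91 to 4.03 CPM, and Col2a1, at 2195 to 3656 CPM, was highest in control 1. Dlx5 had 11.4, 4.62 and 4.20 CPM in knockouts 1, 2 and 3. The part of cartilage and bone RNA in the Dlx5 values was not tested.

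**Figure D5:**
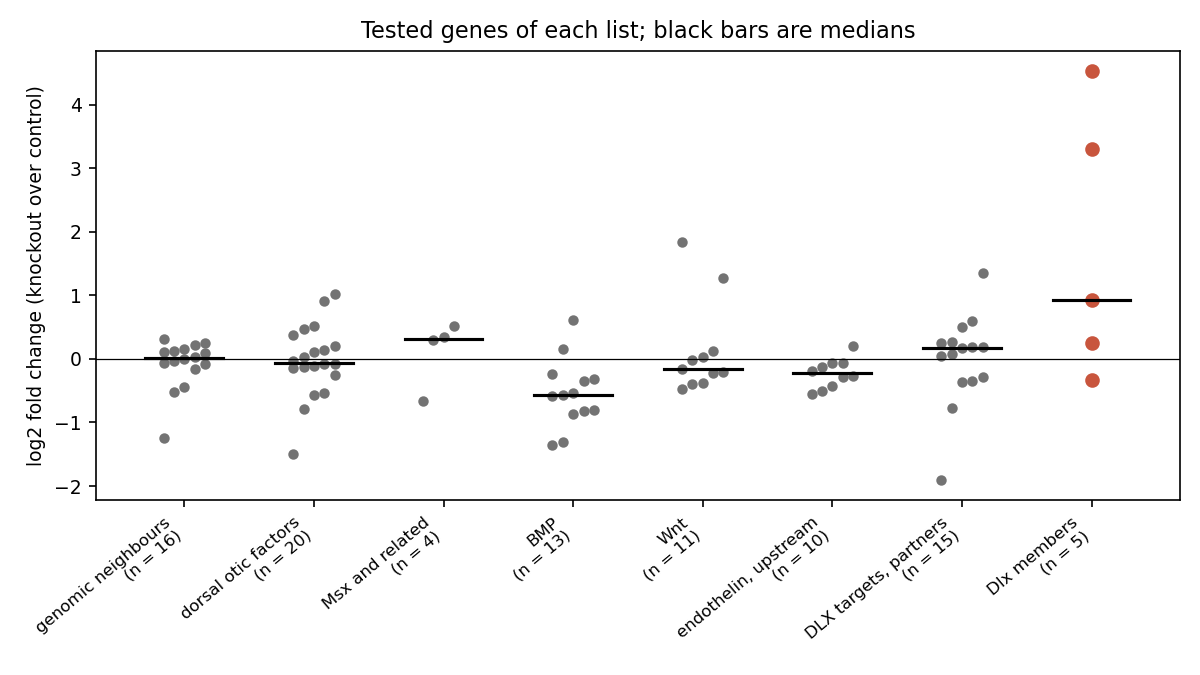
Log2 fold change, knockout over control (vertical axis), of the tested genes in 7 lists and of the 5 tested Dlx members. Points are genes and black bars medians. The list medians lie between -0.56 for the BMP genes and 0.32 for the Msx group, and the Dlx members reach from -0.33 to 4.52.

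Several markers of the roof of the duct and Reissner's membrane were, like Dlx5 and Dlx6, higher in each knockout than in any control. Of 8 roof markers, Slc26a7, an anion exchanger gene, rose by 1.69 ± 0.22 on the log2 scale in edgeR's test (adjusted p = 0.0354), which called 0.149% of all genes, 7 were positive, and 4 were higher in DESeq2, beside 1.11% of all genes (5 at an unadjusted p under 0.05 in edgeR, beside 4.77%). The list summed to 6880, 3182 and 4108 CPM in controls and 10700, 8552 and 10909 CPM in knockouts, most of it Oc90, a gene of otoconia and roof. Knockouts lay above controls without overlap for Otx2, Oc90, Vmo1, Slc26a7 and Wnt4, as for 5.40% of all genes, whereas Lmx1a and Meis2 overlapped and Bmp6 was negative (3.58, 3.65 and 4.47 CPM in knockouts, 7.83, 3.99 and 6.57 CPM in controls). Dlx5 and the roof sum were both highest in control 1 among controls. Within the knockouts, Dlx5 was highest in knockout 1, while the roof sum was highest in knockout 3. Vmo1 had 5.33, 1.95 and 3.02 CPM in controls and 16.7, 15.8 and 15.5 CPM in knockouts (2.24 ± 0.34, adjusted p = 0.0675). The part of roof cells in the Dlx5 and Dlx6 values was not tested.

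The vestibular markers did not share 1 pattern. The 8 markers summed to 516 to 1047 CPM in controls and 924 to 1249 CPM in knockouts, where knockout 1 had the lowest sum. Most of each sum was Tectb, with 750, 381 and 388 CPM in controls and 486, 782 and 912 CPM in knockouts. The sums put the embryos in the order of Tectb and say little about the other markers. Of these, 6 were tested and 0 passed edgeR's test (1 higher at an unadjusted p under 0.05, beside 4.77% of all genes, and 1 higher in DESeq2, beside 1.11%). Knockout 1 was highest of all embryos for Otop1, Ocm, Gfi1 and Otoa, while it had the lowest Tectb of the knockouts (486 CPM), and Hmx3 and Ush1c were highest in control 1. Otop1 had 121 reads in knockout 1 and 2 and 0 in knockouts 2 and 3, and the hair cell gene Ocm had 9, 0 and 2 reads there and 0 in all controls. In knockouts 2 and 3, Dlx5 had 4.62 and 4.20 CPM and Dlx6 1.45 and 0.934 CPM. The markers differed in these 2 embryos: Otop1 was at or near 0, but Otoa had 187 and 258 CPM, against 79.2 to 177 CPM in controls. The 6 choroid plexus markers went different ways in knockout 1, which was highest for Ttr (146 CPM against 11.1 to 24.4 elsewhere), Aqp1 and Folr1, lowest for Clic6 (105 CPM against 113 to 218) and Kl, and within the range of the others for Kcnj13. Periotic mesenchyme markers summed to 1909 to 2736 CPM in controls and 2780 to 2930 CPM in knockouts, with 0 of 8 past edgeR's test (0 at an unadjusted p under 0.05, 0 in DESeq2). The part of these tissues in the level of Dlx5 in knockout 1 was not tested.

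The genes whose pattern over the 6 embryos was most like that of Dlx5 and Dlx6 were taken by Pearson's r of log2 CPM among 14095 genes. For Dlx5 these were Cdkn2b, a cell cycle inhibitor gene (0.998), Fxyd3, an ion pump regulator gene (0.994), Pion (0.993), Tmem27 (0.992), Sdf2l1 (0.991), Dgat2 (0.990), Csad (0.988), Dlx6 (0.986), Blcap (0.982) and 2310061J03Rik (0.982). Cdkn2b had 3.07, 1.72 and 2.26 CPM in controls and 9.76, 6.76 and 6.07 CPM in knockouts. Fxyd3 had 1.25, 0.726 and 0.862 CPM against 6.94, 3.87 and 4.14 CPM. All 10 were highest in knockout 1 and had groups that did not overlap, which the measure of likeness favours. Of them Tmem27, a collectrin gene, rose in edgeR's test (2.94 ± 0.35, adjusted p = 0.0255), which called 0.149% of all genes. Likeness to Dlx5 favours genes that differ between the groups, so this call adds nothing on Dlx5.

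For Dlx6 the 10 were 2310061J03Rik (0.996), H2-M3 (0.987), Pion (0.986), Dlx5 (0.986), Ppib (0.984), Csad (0.982), Dnajc30 (0.982), B930041F14Rik (0.982), Rnf215 (0.980) and Fxyd3 (0.979). Both lists held 2310061J03Rik, Pion, Csad and Fxyd3. Most of these genes differed little in size between the groups, such as Csad at 30.9 to 33.2 CPM in controls and 36.6 to 40.8 CPM in knockouts. For Dlx1 the list was made after the values were seen and was led by Lingo1 (0.994) and Snap25 (0.993), both genes of neurons. All 10 were lowest in control 1 and highest in control 2, as Dlx1 was, which the measure of likeness favours. Snap25 and Elavl4 were also among the 12 neuronal genes set beside Dlx1, so the lists are not independent. For Dlx2 the list was led by Tacc3 (0.990), one of the proliferation genes, and Nes (0.989).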

How the data were processed

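PolyA RNA of cochlear epithelium was sequenced from 6 embryos, 2 libraries each (12 in all), and the authors deposited 1 table with 28644 RefSeq transcript rows. Per the file headers it holds read counts per embryo without normalisation, FPKM per embryo, and the authors' edgeR comparison as log2 fold changes with p-values and FDR. The submitters' processing notes name edgeR and mm10, and no aligner, counter or strand setting is given in the sources read for this work. Of the per-embryo columns, 6 more were left unused. No row lacked a gene name.

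For each gene the row with the most reads stood for it. In R 4.3.3, genes that passed edgeR 4.0.16's filterByExpr at a minimum count of 10 were scaled by TMM, and the 3 knockouts were compared with the 3 controls by edgeR's quasi-likelihood F test with Benjamini-Hochberg adjustment over 14717 genes and a threshold of 0.05. Standard errors were computed from the fold change and F (absolute log2 value divided by the root of F). The test was checked on simulated counts. DESeq2 1.42.0 on the counts and limma 3.58.1 on the deposited FPKM were alternatives. Read ratios have exact 95% binomial intervals. A count of 0 allows up to 3 reads. Likeness used log2 CPM with a prior count of 2 and genes with a mean of at least 1 CPM. Homeobox positions came from GENCODE transcripts matched to the deposited rows, and neighbours from RefSeq on GRCm38.

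The members and all lists were chosen with earlier results of these data known. Named genes are the Dlx genes with their antisense RNAs, Esrp1, the 10 genes most like Dlx5 and Dlx6, all neighbours, and of each other list the members past the threshold or else the 3 with the smallest adjusted p (the smallest p where these were equal), with markers where they touch a Dlx gene. Lists of neuronal, proliferation and immediate early genes, and likeness to other members, were added after the values were seen. Some list members are not reported here. The 10 proliferation genes summed to 923 to 1419 CPM in controls and 963 to 1407 CPM in knockouts. The 5 immediate early genes summed to 742, 46.9 and 40.3 CPM in controls and 193, 30.7 and 21.5 CPM in knockouts. Cartilage and bone markers summed to 2490 to 3692 CPM in controls and 2233 to 3137 CPM in knockouts, and epidermal markers to 115 to 210 CPM and 103 to 201 CPM.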

Additional observations from a re-analysis of the deposited data

How the results depend on the processing

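The number of genes called, 22 with all embryos, was 22 with DESeq2's size factors in edgeR, 31 without the filter on low counts, 30 and 25 in limma on log2(FPKM + 0.1) and log2(FPKM + 1), and 163 in DESeq2. Leaving out single embryos gave 0 to 31 genes (0 without control 3 or knockout 2, 4 without knockout 3, 7 without knockout 1). It was 157 without both embryos numbered 1 and 0 without knockouts 2 and 3, where the lone knockout is assumed to vary like the controls.

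The log2 fold changes of Dlx5 and Dlx6 were positive under every alternative run. Dlx5 ranged from 2.68 (without knockout 1) to 3.73 with single embryos left out, was 4.06 without knockouts 2 and 3, and was 1.26 in limma on log2(FPKM + 1), where the added constant shrinks low genes. Dlx6 ranged from 3.64 (without knockout 1) to 4.89, and was 5.49 without knockouts 2 and 3, 2.71 on log2(FPKM + 0.1) and 0.86 on log2(FPKM + 1). Dlx3 ranged from 0.59 to 1.27 over all alternatives. Dlx1 and Dlx2 changed sign with single embryos left out (Dlx1 -0.81 to 0.35, Dlx2 -0.13 to 1.11), and Dlx1 was 0.14 on log2(FPKM + 0.1), while Dlx2 was -0.46 without knockouts 2 and 3. The precision of Dlx4 and Dlx6 is limited by 1 and 5 control reads.

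With the embryo number as a replicate block, 6 genes were called, 5 of them among the 22, and Dlx5 and Dlx6 had 3.25 and 4.36. Deviations of same-numbered embryos correlated at 0.0768, 0.177 and 0.0288, and those of differently numbered embryos at -0.224 to 0.158. Among the controls only control 2 correlated best with its own number, while knockouts 1 and 2 both did. These values do not settle whether the numbers pair the embryos. The tests above left them unpaired, and the block is given as an alternative. The descriptions of same-numbered embryos share part of a code whose meaning the labels do not give.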
